A study of Arabidopsis thaliana with 10 samples.

Results

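Arabidopsis thaliana seedlings of the line DIF-OX2 grown on dexamethasone (Dex) held transcripts of 33 genes that were close to absent from every other kind of seedling in the study. The genes were picked on CPM, the count of a gene divided by all counts of its library and multiplied by 1000000. A gene had to average below 0.5 CPM in each of the other 4 groups and to reach 3 CPM or more in both libraries of DIF-OX2 on Dex. Of the 33602 genes counted, 35 met both limits. AT5G36150 and AT3G29365 were left out by the rule, so 33 were described. Because those values chose the genes, their levels are a description, and no test result is given for a member.

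RNA sequencing counted reads per gene in 10 libraries, 2 for each of 5 groups. DIF-OX2 on Dex and DIF-OX2 are the same overexpression line in the Col-0 background, 12 days old, with 10 µM Dex in the medium of the first. The mutant dal-2, also in the Col-0 background, was grown without Dex and was 20 and 21 days old in replicates 1 and 2, so that its genotype and age cannot be told apart. Col-0 on Dex and Col-0 are wild-type seedlings of 12 days with and without that dose. All plants were whole seedlings taken at 4 open true leaves, and all media held 0.1% ethanol. Dex is a synthetic glucocorticoid used to switch on a transgene, and DIF is, by the study's title, part of an SCF ubiquitin ligase that degrades DAL. DIF-OX2 is 1 line, and the promoter that answers to Dex is not stated in what was used here. The labels do not state whether replicates were grown as separate cultures. P-values thus measure only the spread between these libraries, which may be technical.

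A seedling on agar keeps many genes at or near zero. Some of these genes normally work in seeds, embryos, flowers or pollen, where storage cupins, late embryogenesis abundant proteins and pollen coat proteins are made. Others answer to attack or stress, such as the plant defensins, small secreted antimicrobial proteins whose genes respond to jasmonate and ethylene, and the receptors of the TIR class that detect pathogens. W-boxes in promoters are bound by WRKY factors, GCC boxes by ethylene response factors, and G-boxes by bZIP and bHLH factors.

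The coding sequences of both defensins of the set, PDF1.3 and PDF1.2, are shown with that of PDF1.2c, because reads from such close copies can be assigned to the wrong gene. All 3 have 243 coding bases in RefSeq's TAIR10.1 annotation. Capitals mark the 24 positions at which not all 3 carry the same base, and sequences run 5′ to 3′ along the coding strand.
PDF1.3 (AT2G26010, chromosome 2, plus strand): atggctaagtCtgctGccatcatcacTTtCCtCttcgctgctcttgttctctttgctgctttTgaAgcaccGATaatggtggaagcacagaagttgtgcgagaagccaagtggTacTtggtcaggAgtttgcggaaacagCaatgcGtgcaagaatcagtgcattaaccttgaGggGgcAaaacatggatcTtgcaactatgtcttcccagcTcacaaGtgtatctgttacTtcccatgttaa
PDF1.2 (AT5G44420, chromosome 5, minus strand): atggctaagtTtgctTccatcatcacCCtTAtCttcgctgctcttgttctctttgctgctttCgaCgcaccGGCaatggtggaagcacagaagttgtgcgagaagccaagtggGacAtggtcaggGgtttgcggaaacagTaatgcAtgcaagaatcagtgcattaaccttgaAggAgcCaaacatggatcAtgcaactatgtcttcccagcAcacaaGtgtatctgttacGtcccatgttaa
PDF1.2c (AT5G44430, chromosome 5, minus strand): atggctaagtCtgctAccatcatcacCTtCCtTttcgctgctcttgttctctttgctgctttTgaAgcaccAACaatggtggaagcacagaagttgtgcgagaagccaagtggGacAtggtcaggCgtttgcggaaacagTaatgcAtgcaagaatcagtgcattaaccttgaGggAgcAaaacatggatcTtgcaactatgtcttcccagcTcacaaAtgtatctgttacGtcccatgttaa
PDF1.3 and PDF1.2 differed at 21 bases, PDF1.3 and PDF1.2c at 13, and PDF1.2 and PDF1.2c at 16. The longest runs with no difference were 39, 41 and 52 bases in those pairs.

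The 250 bases before the annotated gene start are shown for 5 members that carry the promoter letters searched for. AT3G05950 has the highest level of the set, MYB2 and AT4G28460 carry several W-box cores, PDF1.2 holds the GCC box, and AT4G36700 holds a pair of G-boxes. Capitals mark TTGAC, the W-box core, or its reverse complement in the first 3, GCCGCC in PDF1.2 and CACGTG in AT4G36700. Each runs 5′ to 3′ along the strand of its gene and comes from RefSeq's TAIR10.1.
AT3G05950 (chr3:1782008-1782257, minus strand): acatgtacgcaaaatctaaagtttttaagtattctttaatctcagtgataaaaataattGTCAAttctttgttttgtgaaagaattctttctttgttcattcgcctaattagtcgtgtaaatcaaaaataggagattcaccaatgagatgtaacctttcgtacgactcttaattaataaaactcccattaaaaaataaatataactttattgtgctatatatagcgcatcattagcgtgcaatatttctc
MYB2 (chr2:19375735-19375984, plus strand): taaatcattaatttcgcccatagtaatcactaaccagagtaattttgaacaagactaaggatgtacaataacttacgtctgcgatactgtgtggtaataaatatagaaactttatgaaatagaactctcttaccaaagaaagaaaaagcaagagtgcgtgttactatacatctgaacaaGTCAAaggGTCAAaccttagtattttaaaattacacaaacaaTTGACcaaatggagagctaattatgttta
AT4G28460 (chr4:14065742-14065991, plus strand): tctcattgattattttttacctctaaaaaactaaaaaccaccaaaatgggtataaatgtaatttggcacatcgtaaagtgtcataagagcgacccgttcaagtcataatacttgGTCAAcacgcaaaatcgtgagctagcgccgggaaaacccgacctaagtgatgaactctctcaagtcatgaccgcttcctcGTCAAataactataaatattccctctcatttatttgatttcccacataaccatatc
PDF1.2 (chr5:17907639-17907888, minus strand): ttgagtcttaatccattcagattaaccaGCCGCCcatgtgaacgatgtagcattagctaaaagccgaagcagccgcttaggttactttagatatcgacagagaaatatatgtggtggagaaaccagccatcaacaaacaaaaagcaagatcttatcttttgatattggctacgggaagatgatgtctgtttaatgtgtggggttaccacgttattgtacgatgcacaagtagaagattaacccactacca
AT4G36700 (chr4:17300368-17300617, minus strand): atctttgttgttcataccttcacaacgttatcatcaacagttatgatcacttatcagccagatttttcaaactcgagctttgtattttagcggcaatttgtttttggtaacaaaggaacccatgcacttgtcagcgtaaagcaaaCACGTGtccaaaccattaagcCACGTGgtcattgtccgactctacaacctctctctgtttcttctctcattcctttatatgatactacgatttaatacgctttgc
The core of AT3G05950 begins 191 bases before the gene start. The cores of MYB2 begin 71, 63 and 29 bases before it and those of AT4G28460 136 and 56. The GCC box of PDF1.2 begins 222 bases before the start, and the G-boxes of AT4G36700 begin 105 and 84 bases before theirs.

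Together the 33 genes summed to 572 and 723 CPM in DIF-OX2 on Dex. The sums were 3.56 and 3.45 CPM in DIF-OX2 without Dex, 5.83 and 6.11 in dal-2, 3.60 and 3.38 in Col-0 on Dex, and 3.68 and 3.25 in Col-0. The sums of DIF-OX2 without Dex and of Col-0 on Dex lay between both sums of Col-0, and those of dal-2 lay above them. Every member had at least 31 counts in replicate 1 and 48 in replicate 2 of DIF-OX2 on Dex. No member had more than 9 counts in any of the other 8 libraries. In whole seedlings, more cells that use a gene and more RNA of it per cell cannot be told apart.

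The mean level of a member in DIF-OX2 on Dex had a median of 9.49 CPM and ran between 3.79 and 155 CPM. Of the 33 members, 15 averaged 10 CPM or more, 12 averaged 5 to 10 CPM and 6 averaged less. The 5 members with the most reads held 56.8% and 57.7% of the set's CPM in replicates 1 and 2. Per kilobase of annotated exon the levels ran between 1.93 and 168 CPM per kb, with a median of 6.45. The median member's CPM in DIF-OX2 on Dex lay above that of 59.4% of all genes in the table.

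**Figure D1:**
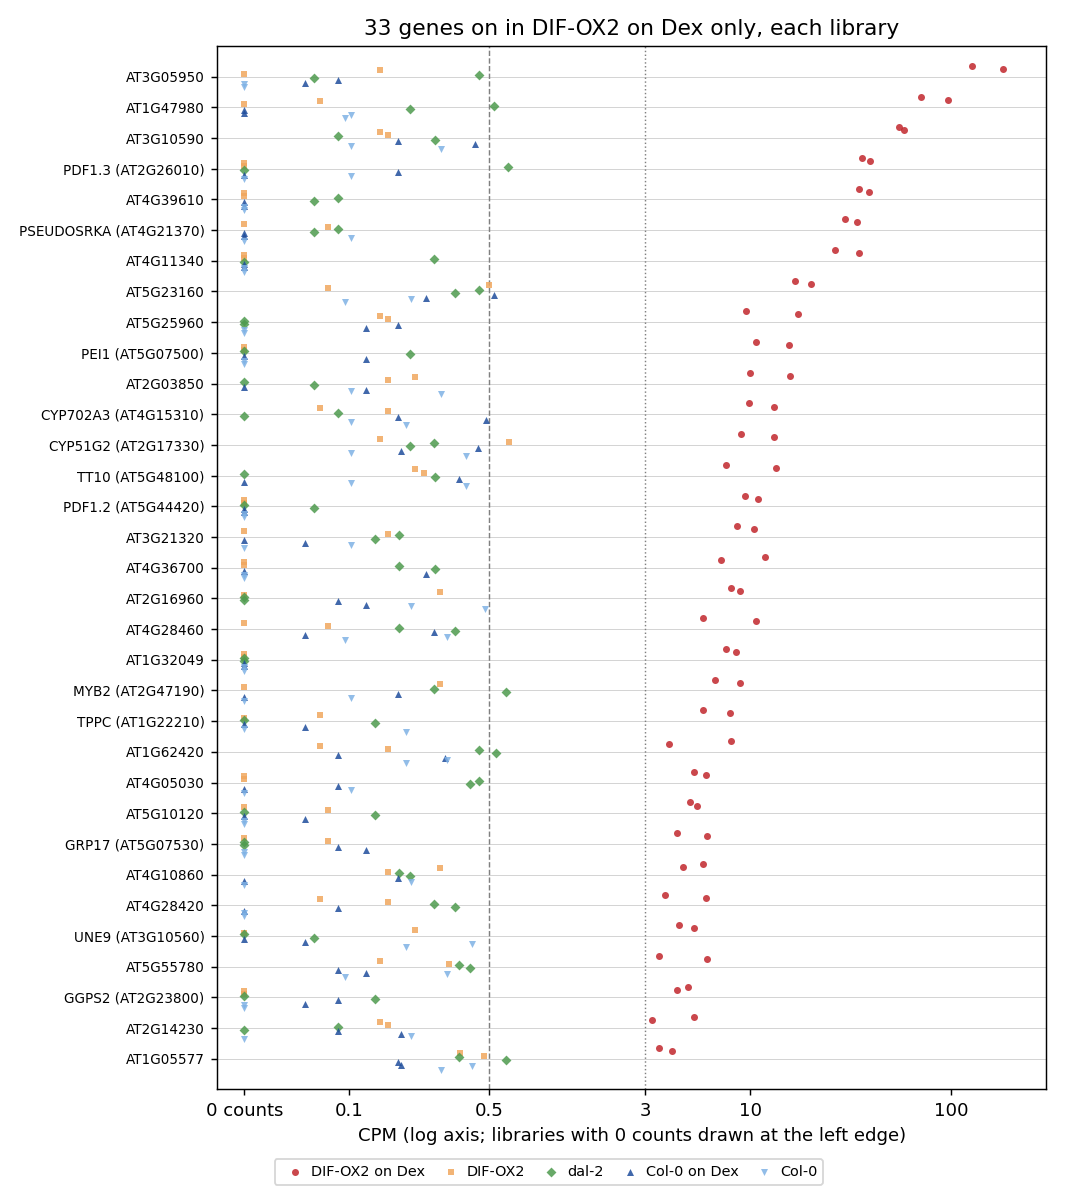
CPM of each of the 33 members (rows, by mean level in DIF-OX2 on Dex) in all 10 libraries, on a log axis with libraries of 0 counts at the left edge. The dashed and dotted lines mark the limits of 0.5 and 3 CPM, and the 2 red points of DIF-OX2 on Dex stand right of all others in each row because the rule required it.

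Close to absent did not mean that no read was found. The pseudogene AT1G32049 was the 1 member with no count in all 8 other libraries, at 7.61 and 8.47 CPM in DIF-OX2 on Dex. In DIF-OX2 without Dex 9 members had no count, in dal-2 4, in Col-0 on Dex 6 and in Col-0 12. For 18 members the highest of the other 8 libraries was a dal-2 library. The highest single values outside DIF-OX2 on Dex were 0.628 CPM for CYP51G2 in DIF-OX2 replicate 2, 0.619 for PDF1.3 in dal-2 replicate 1, and 0.604 for MYB2 and AT1G05577 in dal-2 replicate 2. For the library with the fewest counts, 1 read is worth 0.114 CPM.

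The 5 members grouped here under the label of seed and pollen protein families summed to 225 and 309 CPM. Of them AT3G05950 and AT4G36700 are annotated only as proteins of the broad cupin superfamily, a name that states no seed or pollen role. Whether these cupins belong with seed proteins was not tested. Without AT3G05950 the group summed to 96.8 and 126 CPM, against 87.9 and 106 CPM for the 8 members of unclear role. AT3G05950, a cupin, stood at 128 and 183 CPM in DIF-OX2 on Dex. It had 0.143 and 0 CPM in DIF-OX2, 0.442 and 0.0671 in dal-2, 0.0878 and 0.0604 in Col-0 on Dex, and 0 and 0 in Col-0. It had 1129 and 2697 counts in the induced line, and the next library of any group did not reach 1 CPM. AT1G47980, annotated as desiccation-like, had 70.6 and 97.2 CPM in DIF-OX2 on Dex, against no count in either Col-0 on Dex library. Its ratio to Col-0 on Dex was at least 813-fold, with 3 counts over the group as the floor. A large ratio was required by the rule. Both genes were also the top 2 per kilobase, at 168 and 70.5 CPM per kb.

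AT2G03850, a late embryogenesis abundant (LEA) protein of the kind that protects drying seeds, had 9.99 and 15.7 CPM in DIF-OX2 on Dex. It had 0.214 and 0.157 CPM in DIF-OX2, 0 and 0.0671 in dal-2, 0 and 0.121 in Col-0 on Dex, and 0.102 and 0.287 in Col-0. The rule required these groups to lie apart, as for every member. AT4G36700, another cupin, had 11.8 and 7.18 CPM in DIF-OX2 on Dex, and no count in DIF-OX2 and Col-0. GRP17, a glycine-rich oleosin-like protein known from the pollen coat, had 4.32 and 6.09 CPM in DIF-OX2 on Dex, against 0.0878 and 0.121 in Col-0 on Dex. At 2.66 CPM per kb GRP17 ranked 30 of the 33.

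The 5 transcription factors and regulators were led by AT3G10590, a duplicated homeodomain-like protein. It had 55.2 and 58.6 CPM in DIF-OX2 on Dex, 0.143 and 0.157 in DIF-OX2, 0.0884 and 0.269 in dal-2, 0.176 and 0.423 in Col-0 on Dex, and 0.102 and 0.287 in Col-0. Its replicates were among the closest of the set, and its ratio to Col-0 on Dex was 178 (95% counting interval 93.5 to 390). The rule fixed in advance that this ratio is large, and the interval covers counting error only. PEI1, a CCCH zinc finger protein described in embryos, had 10.7 and 15.6 CPM in DIF-OX2 on Dex, no count in DIF-OX2 and Col-0, and 0 and 0.121 CPM in Col-0 on Dex. MYB2, a MYB factor of drought and abscisic acid responses, had 6.70 and 8.87 CPM in DIF-OX2 on Dex, against 0.176 and 0 in Col-0 on Dex. Its dal-2 libraries had 0.265 and 0.604 CPM. AT5G10120, of the ETHYLENE INSENSITIVE 3 family, whose founding member is a transcription factor of ethylene signalling, had 5.00 and 5.42 CPM in DIF-OX2 on Dex, against 0 and 0.0604 in Col-0 on Dex. AT3G21320, annotated as an EARLY FLOWERING protein, had 8.63 and 10.5 CPM in DIF-OX2 on Dex, against 0 and 0.0604 in Col-0 on Dex.

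Both defensins were almost free of reads outside the induced line. PDF1.3 had 36.1 and 39.7 CPM in DIF-OX2 on Dex, 0 and 0 in DIF-OX2, 0.619 and 0 in dal-2, 0.176 and 0 in Col-0 on Dex, and 0.102 and 0 in Col-0. PDF1.2, the standard marker of jasmonate and ethylene defence, had 83 and 161 counts in DIF-OX2 on Dex and 1 count in the other 8 libraries together. Per kilobase PDF1.3 reached 61.1 and PDF1.2 17.6 CPM per kb in DIF-OX2 on Dex. PDF1.2c, which missed the limit of 3 CPM in replicate 2, had 27 and 28 counts in DIF-OX2 on Dex and none in the other 8. The coding sequences of these 3 genes are 91.4% to 94.7% identical, and the sources used here do not say how multiply aligned reads were handled. The split of reads among them is therefore uncertain. PDF1.2b, as close to the members at 93.8% and 94.2%, had 1 and 0 counts in DIF-OX2 on Dex.

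The set held 1 gene of the TIR-NBS-LRR class of immune receptors and 1 receptor kinase. AT4G11340, the TIR gene, had 26.6 and 34.9 CPM in DIF-OX2 on Dex and no count in DIF-OX2, Col-0 on Dex and Col-0. It had 0.265 and 0 CPM in dal-2, and its ratio to Col-0 on Dex was at least 296-fold, a ratio the rule required to be large. PSEUDOSRKA is the Col-0 remnant of the receptor kinase by which self-incompatible relatives reject their own pollen, and its annotation describes a frameshift with a premature stop. It had 29.5 and 34.0 CPM in DIF-OX2 on Dex, 0 and 0.0785 in DIF-OX2, 0.0884 and 0.0671 in dal-2, 0 and 0 in Col-0 on Dex, and 0.102 and 0 in Col-0. Over its 2983 exon bases this was 10.6 CPM per kb, against 20.6 for the TIR gene.

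The 6 enzymes of metabolism had group means of 4.61 to 11.5 CPM in DIF-OX2 on Dex. CYP702A3, a cytochrome P450, had 9.88 and 13.1 CPM in DIF-OX2 on Dex, against 0.176 and 0.483 in Col-0 on Dex. TT10, the laccase that browns flavonoids in the seed coat, had 7.61 and 13.4 CPM in DIF-OX2 on Dex, against 0.351 and 0 in Col-0 on Dex. TPPC, a trehalose-6-phosphate phosphatase, had 5.79 and 7.92 CPM in DIF-OX2 on Dex, against 0 and 0.0604 in Col-0 on Dex. In all 3 replicate 2 was the higher induced library. AT4G28420 (tyrosine transaminase family), the P450 gene UNE9 and GGPS2, a geranylgeranyl pyrophosphate synthase, lay between 3.75 and 6.03 CPM in DIF-OX2 on Dex. In Col-0 on Dex none of these 3 exceeded 0.0878 CPM.

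Transporter-like genes and pseudogenes added few reads. AT2G16960, an ARM repeat protein related to the nuclear import receptor TRN1, had 8.06 and 8.94 CPM in DIF-OX2 on Dex, against 0.0878 and 0.121 in Col-0 on Dex. AT4G05030, annotated as a copper transport protein, had 5.22 and 6.03 CPM in DIF-OX2 on Dex, against 0.0878 and 0 in Col-0 on Dex. Its dal-2 libraries had 0.442 and 0.403 CPM. CYP51G2, annotated as an expressed pseudogene of a sterol demethylase, had 8.97 and 13.1 CPM in DIF-OX2 on Dex, against 0.439 and 0.181 in Col-0 on Dex. The pseudogene AT2G14230 was the member closest to the upper limit, at 5.22 and 3.25 CPM in DIF-OX2 on Dex. With PSEUDOSRKA and AT1G32049 the set held 4 annotated pseudogenes, 12.1% of its members. Pseudogenes made up 38.6% of the genes that were silent in the other 4 groups and matched in the annotation, and 14.7% of all matched genes.

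No clear role is given in the annotation for 8 members. AT4G39610, which carries the domain named after the hydrotropism gene MIZU-KUSSEI, had 35.0 and 39.3 CPM in DIF-OX2 on Dex. It had no count in DIF-OX2, Col-0 on Dex and Col-0, and 0.0884 and 0.0671 CPM in dal-2. AT5G23160 had 16.7 and 20.0 CPM in DIF-OX2 on Dex, against 0.527 and 0.242 in Col-0 on Dex. These were 2 of the 7 members with the most CPM per kb, at 29.2 and 18.3. AT5G25960 had 9.54 and 17.3 CPM and AT4G28460 5.79 and 10.7 CPM in DIF-OX2 on Dex. The remaining 4 were AT1G62420, AT4G10860, AT5G55780 and AT1G05577, between 3.52 and 8.06 CPM there.

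The induced replicates gave the set much the same profile, which the rule favoured by requiring 3 CPM or more in both. Replicate 2 was the higher one for 28 members and replicate 1 for 5, with a median ratio of replicate 2 to replicate 1 of 1.201. Over all 17017 genes at 3 CPM or more in both libraries the median ratio was 1.04, and 59.8% were higher in replicate 2. The members farthest apart were AT1G62420 at 8.06 and 3.93 CPM (ratio 0.487), AT4G28460 at 5.79 and 10.7 CPM (1.85), and AT5G25960 at 9.54 and 17.3 CPM (1.81). AT1G62420 was the 1 member with a difference of 2-fold or more.

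**Figure D2:**
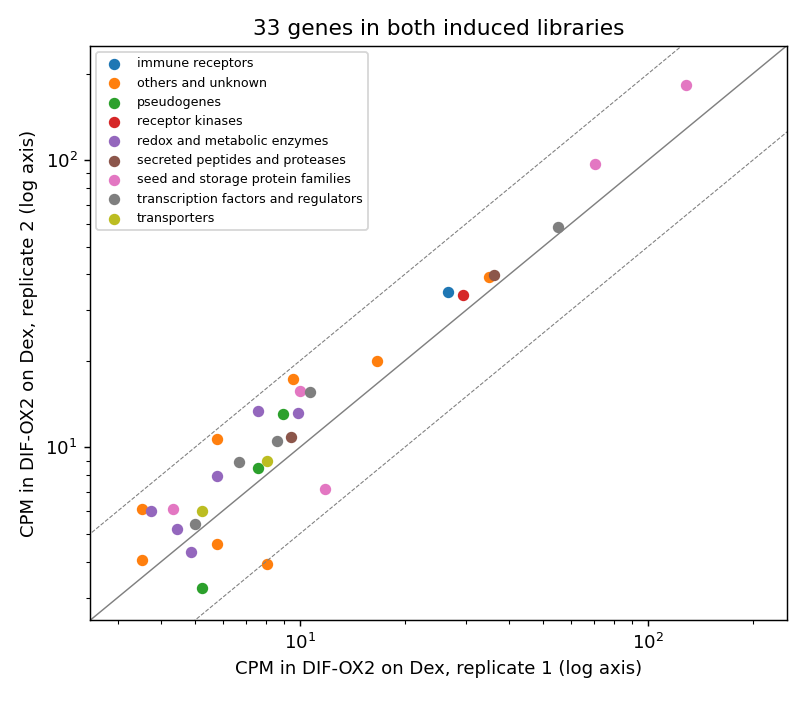
CPM of the 33 members in replicate 1 (x axis) and replicate 2 (y axis) of DIF-OX2 on Dex, both log axes, coloured by role. The solid line is equality and the dashed lines are 2-fold differences; 28 points lie above equality and AT1G62420 lies just outside the lower dashed line.

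The set is the upper end of a wider class. In the other 4 groups 12338 genes averaged below 0.5 CPM, of which 7590 had no count in any of the 10 libraries. Of the 12338 genes, 192 reached 0.5 CPM in both libraries of DIF-OX2 on Dex, 99 reached 1 CPM, 55 reached 2 CPM, 35 (0.284%) reached 3 CPM and 11 reached 10 CPM. The 12305 silent genes outside the set summed to 870 and 1106 CPM in DIF-OX2 on Dex. In DIF-OX2 the sums were 287 and 284, and in dal-2 437 and 409. In Col-0 on Dex they were 314 and 268, and in Col-0 319.5 and 293. These genes include AT5G36150 and AT3G29365, which met both limits. The limit of 0.5 CPM bound only the other 4 groups, so the choice favoured a higher sum in DIF-OX2 on Dex. When the same limits were turned to another group, 13 genes were on in dal-2 alone and none in DIF-OX2, Col-0 on Dex or Col-0 alone. At the lower requirement of 0.5 CPM in both libraries, dal-2 had 209 such genes and the other 3 groups 10 to 18.

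**Figure D3:**
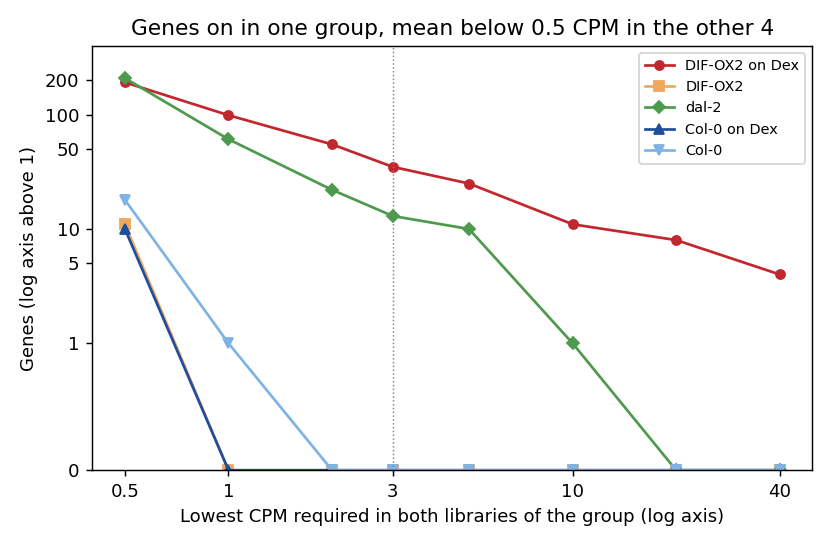
Number of genes (y axis, log above 1) that average below 0.5 CPM in the other 4 groups and reach a given CPM in both libraries of 1 group (x axis, log), for each group. At 3 CPM, the dotted line, 35 genes pass for the induced line and 13 for dal-2, and the other 3 groups are at 0.

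Genes just inside and just outside the limits had similar values. Inside, AT1G62420, AT1G05577 and MYB2 came nearest to 0.5 CPM, with means of 0.489, 0.479 and 0.435 CPM in dal-2. Outside it, WAK5 averaged 0.520 CPM in dal-2, AT3G26820 0.535 in DIF-OX2 and IPS1 0.585 in Col-0 on Dex. At the upper limit, AT2G14230, AT1G05577 and AT5G55780 had 3.25, 3.52 and 3.52 CPM in their lower induced library. IDA and AT1G70640 with 2.95 CPM each and NRT2.5 with 2.84 CPM fell short of it.

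Defence and stress lists were read beside the set in the comparison of DIF-OX2 on Dex with Col-0 on Dex, which edgeR's quasi-likelihood test made over 20681 genes with Benjamini-Hochberg adjustment. It called 22.0% of all tested genes, 11.6% higher and 10.4% lower, with a median log2 fold change of 0.01. The test of DIF-OX2 on Dex against DIF-OX2 called 24.3% (12.7% higher, 11.6% lower), and that of dal-2 against Col-0 33.9% (15.9% higher, 18.0% lower). All 33 members passed the count filter, which their own level in DIF-OX2 on Dex decided, and no call on a member is given. The lists were chosen with earlier results of these data known. Their counts of calls below are thus a description, to be read beside the 11.6% higher and 10.4% lower of all tested genes.

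The jasmonate and ethylene list held 2 members, PDF1.2 and PDF1.3, and 9 other tested genes, of which 4 rose and 1 fell. PR4, a chitin-binding defence protein, rose to 446 and 563 CPM in DIF-OX2 on Dex, against 50.4 and 56.9 in Col-0 on Dex (log2 fold change 2.97, SE 0.22, adjusted p = 0.000177 by edgeR). JAZ8, a repressor of jasmonate responses, rose at least 25.3-fold over no count in Col-0 on Dex, with 3 counts over the group as floor. PDF1.2c rose at least 21.7-fold on the same floor. Both passed the count filter only through DIF-OX2 on Dex, so a call on them could only be a rise. The call of JAZ8 ended without Col-0 on Dex replicate 2 (adjusted p = 0.063) and without DIF-OX2 on Dex replicate 2 (0.0651), and that of PDF1.2c in all 4 fits with 1 library left out (0.0566 to 0.0778). VSP2, a marker of the wound branch of jasmonate signalling, fell to 7.61 and 20.2 CPM in DIF-OX2 on Dex, against 43.2 and 42.9 in Col-0 on Dex. It had 27.2 and 19.1 CPM in DIF-OX2 without Dex, which overlaps the induced values. Its call held without DIF-OX2 on Dex replicate 2 (adjusted p = 0.0241 by edgeR), and ended without DIF-OX2 on Dex replicate 1 (0.0686), Col-0 on Dex replicate 1 (0.0738) and Col-0 on Dex replicate 2 (0.0856). ORA59 and ERF1 are factors that act upstream of the defensins. ORA59 had 3.52 and 4.67 CPM in DIF-OX2 on Dex, against 0.703 and 0.423 in Col-0 on Dex (adjusted p = 0.0583 by edgeR, not called), and ERF1 had too few counts to be tested. In dal-2 ORA59 had 10.5 and 2.69 CPM. ERF1 had 0.884 and 0.739 CPM in dal-2 and 0.341 and 0.271 in DIF-OX2 on Dex. The part of both factors in the levels of the defensins was not tested.

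The classical seed genes did not form part of the set. None of the 19 genes of a list of seed maturation and desiccation genes (cruciferins, albumins, oleosins, LEA proteins and their regulators) was a member, and 4 had enough counts to be tested. CRC, 1 of the 4, passed the filter through dal-2 and had no count in either group compared here, so that 3 could be compared. Of these none was called between DIF-OX2 on Dex and Col-0 on Dex at an adjusted p below 0.05 by edgeR's quasi-likelihood test, 0 had an unadjusted p below 0.05, and DESeq2 called 0. Without DIF-OX2 on Dex replicate 1 CRA1 was called higher (log2 fold change 3.45), and without both dal-2 libraries RAB18 was called lower (-1.07). The list summed to 3.75 and 18.0 CPM in DIF-OX2 on Dex, 9.77 and 10.2 in DIF-OX2, 13.1 and 29.9 in dal-2, 7.64 and 11.1 in Col-0 on Dex, and 12.3 and 11.4 in Col-0. The induced replicates lay on both sides of the controls, LTI65 being at 0 and 6.43 CPM and CRA1 at 0 and 2.03 CPM in them. LEC1, the embryo regulator, had no count in any library. Of the other regulators on the list, LEC2 and FUS3 each had 0.114 and 0 CPM in DIF-OX2 on Dex. ABI3 had 0.341 and 1.35 CPM there, against 0.0878 and 0.0604 in Col-0 on Dex, too few counts to be tested.

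The salicylate and pipecolate list had no member in the set, 11 of its 21 tested genes rose and none fell (median log2 fold change 0.87). Over all tested genes 11.6% were called higher and 10.4% lower. SARD1, a regulator of salicylate synthesis, rose to 75.9 and 103 CPM in DIF-OX2 on Dex, against 0.527 and 1.63 in Col-0 on Dex. PBS3, an enzyme of that synthesis, rose to 32.7 and 36.4 CPM in DIF-OX2 on Dex, against 1.67 and 1.21 in Col-0 on Dex. FMO1, which makes the pipecolate signal, rose to 4.09 and 5.08 CPM in DIF-OX2 on Dex, against 0.176 and 0.181 in Col-0 on Dex. None of the 3 met the limits of the set. SARD1 and PBS3 averaged above 0.5 CPM in the controls, and FMO1 had 2.65 and 0.403 CPM in dal-2. FMO1 passed the count filter through DIF-OX2 on Dex, so its call could only be a rise.

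Of 16 genes of the mitochondrial dysfunction list, none a member, 11 rose and none fell (median log2 fold change 1.25). AOX1D, an alternative oxidase, rose to 4.54 and 6.91 CPM in DIF-OX2 on Dex, against 0.176 and 0.121 in Col-0 on Dex. AT5G09570, a small CHCH protein, rose to 2.38 and 4.06 CPM in DIF-OX2 on Dex, against 0 and 0.242 in Col-0 on Dex. AOX1D and AT5G09570 passed the count filter through DIF-OX2 on Dex, so their calls could only be rises. NDB4, an NAD(P)H dehydrogenase, rose to 1.14 and 1.90 CPM in DIF-OX2 on Dex, against 0.0878 and 0.0604 in Col-0 on Dex. Of the 12 indolic defence genes 7 rose and none fell (median log2 fold change 1.63), none of them a member. CYP71A12, a P450 of camalexin synthesis, rose to 26.3 and 35.7 CPM in DIF-OX2 on Dex, against 0.527 and 0.242 in Col-0 on Dex. NAC042, a factor that acts on camalexin genes, rose to 5.56 and 9.14 CPM in DIF-OX2 on Dex, against 0.439 and 0.302 in Col-0 on Dex. Its call too could only be a rise, since NAC042 passed the count filter through DIF-OX2 on Dex. GSTF6, a glutathione transferase, rose to 179 and 263 CPM in DIF-OX2 on Dex, against 30.5 and 26.5 in Col-0 on Dex.

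With 1 library left out these counts fell. The salicylate list had 7 calls without DIF-OX2 on Dex replicate 1 and 4 without each of the other 3 libraries of the comparison. The mitochondrial list had 6 without Col-0 on Dex replicate 2 and 6 without DIF-OX2 on Dex replicate 2. The indolic list had 4 without either Col-0 on Dex library or DIF-OX2 on Dex replicate 2, and the jasmonate list 2 without Col-0 on Dex replicate 2 and 3 without any other. The calls of FMO1, NDB4 and CYP71A12 ended without Col-0 on Dex replicate 1 (adjusted p = 0.0688, 0.0807 and 0.0727 by edgeR), without Col-0 on Dex replicate 2 (0.0803, 0.115 and 0.0975), and without DIF-OX2 on Dex replicate 2 (0.0625, 0.108 and 0.0583).

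The closest relatives of the members were in part silent in DIF-OX2 on Dex and in part expressed. Among the 29 members with an annotated protein, 26 had a relative outside the set in a protein search, at a median identity of 64.0%. Of these 26 relatives 13 averaged below 0.5 CPM in DIF-OX2 on Dex, and 13 had enough counts to be tested. Of the tested ones 6 rose against Col-0 on Dex and none fell, and the median log2 fold change of the 13 was 0.55. That is 46.2% called, against 22.0% of all tested genes. Of the 6, PDF1.2c, MYB112 and AT1G12030 passed the count filter only through DIF-OX2 on Dex, so their calls could only be rises. The relatives' share of calls is therefore not comparable with that of all tested genes. The split of reads between PDF1.2c and the members is uncertain as well. AT3G04200, the cupin closest to AT3G05950 at 75.6% identity, had 0.114 and 0.0677 CPM in DIF-OX2 on Dex. AT2G21990, closest to AT4G39610 at 74.1%, had no count there.

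CYP702A2 had the largest rise of a relative that was counted in both groups. It is the closest relative of CYP702A3 (53.0% identity) and its neighbour, and rose to 113 and 138 CPM in DIF-OX2 on Dex, against 1.93 and 1.51 in Col-0 on Dex (log2 fold change 5.94, SE 0.18, adjusted p = 8.19e-06 by edgeR). It had 1.14 and 1.18 CPM in DIF-OX2 and 0.177 and 0.134 in dal-2, so that only the control levels kept it out of the set. MYB112, closest to MYB2, rose to 3.63 and 4.13 CPM in DIF-OX2 on Dex, against 0.703 and 0.604 in Col-0 on Dex. AT1G12030, closest to AT1G62420, rose to 3.41 and 4.88 CPM in DIF-OX2 on Dex, against 0.439 and 0.785 in Col-0 on Dex. The calls of both ended without Col-0 on Dex replicate 1 (MYB112 0.0848, AT1G12030 0.093), Col-0 on Dex replicate 2 (0.109 and 0.0574) or DIF-OX2 on Dex replicate 2 (0.0981 and 0.106). Without DIF-OX2 on Dex replicate 2, 2 relatives were called, and without Col-0 on Dex replicate 1, 3 were.

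The members lay on all 5 chromosomes and did not sit beside each other. Chromosomes 1 to 5 carried 5, 7, 4, 9 and 8 of them. Chromosome 4 held 27.3% of the members and 15.4% of the genes matched to a chromosome, and chromosome 1 held 15.2% of the members and 25.4% of those genes. None of the 66 nearest genes to their left and right was a member. The closest pairs were AT4G28420 and AT4G28460 (8399 bp apart with 3 genes between), UNE9 and AT3G10590 (8503 bp, 5 genes) and PEI1 and GRP17 (8725 bp, 3 genes). Between PEI1 and GRP17 no gene was tested, and between the other pairs no tested gene was called. GRP14, between PEI1 and GRP17, had 0.795 and 0.609 CPM in DIF-OX2 on Dex, against no count in Col-0 on Dex. GRP18, also between them, had 0.227 and 0.203 CPM in DIF-OX2 on Dex, against 0.176 and 0 in Col-0 on Dex. AT5G07505, the remaining gene there, had no count in any library. Coordinates are those of RefSeq's TAIR10.1, since the count table gives none.

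Of the 66 neighbours 44 were tested, 9 rose and 2 fell in DIF-OX2 on Dex against Col-0 on Dex, with a median log2 fold change of 0.20. At 25.0% called in either direction, against 22.0% of all tested genes, the neighbours stood near the background in total only. By direction, 11.6% of all tested genes rose and 10.4% fell, beside the 9 and 2 of 44 neighbours. Besides CYP702A2 and PDF1.2c, the neighbours that rose were AT5G10130, AT5G25970, HAM4, AT4G11350, AT5G23170, AT4G28410 and NDB2. PDF1.2c passed the count filter only through DIF-OX2 on Dex, so its call could only be a rise. AT5G10130, an Ole e 1 allergen protein, rose to 63.0 and 66.4 CPM in DIF-OX2 on Dex, against 7.29 and 5.74 in Col-0 on Dex (log2 fold change 3.06, SE 0.17, adjusted p = 7.43e-05 by edgeR). HAM4, a GRAS factor next to AT4G36700, rose to 26.8 and 32.0 CPM in DIF-OX2 on Dex, against 4.48 and 4.65 in Col-0 on Dex. The neighbours that fell were AT2G17340 and AT5G55790, by 0.62 and 0.59 on the log2 scale. With 1 library left out, AT5G55790 was called in none of the 4 fits (adjusted p = 0.0778 to 0.189 by edgeR), and AT2G17340 only without DIF-OX2 on Dex replicate 1 (0.0219, against 0.0535 to 0.0821 in the other 3). AT5G10130, CYP702A2, HAM4, AT4G11350 and AT5G25970 were called in all 4 such fits, NDB2 in 2, AT4G28410 and AT5G23170 in 1 and PDF1.2c in none. Without Col-0 on Dex replicate 1 the test called 6 neighbours, without Col-0 on Dex replicate 2 it called 5, and without DIF-OX2 on Dex replicate 2 it called 5.

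Some members lie so close to an expressed gene that reads of that gene could be counted for them, and no source used here gives a strand setting for the counting. The nearest gene lay within 100 bp of, or overlapped, 13 members. The pseudogene AT1G32049 lies 16 bp from SCAMP5 on the same strand, which had 142 and 175 CPM in DIF-OX2 on Dex, against 108 and 113 in Col-0 on Dex. AT4G28460 lies 69 bp from RPN1B on the other strand, which had 86.4 and 90.9 CPM in DIF-OX2 on Dex, against 64.8 and 61.4 in Col-0 on Dex. AT5G10120 ends 3 bp from AT5G10130 on the other strand, and AT4G05030 ends 77 bp from NDB2, which rose to 62.3 and 73.3 CPM in DIF-OX2 on Dex, against 30.0 and 25.5 in Col-0 on Dex. At 5.00 and 5.42 CPM AT5G10120 had far fewer reads than its neighbour. In Col-0 on Dex NDB2 had 25.5 CPM or more while AT4G05030 had 0.0878 and 0, and AT1G32049 had no count in any of the 8 libraries in which SCAMP5 was at 106 CPM or more. The part of these neighbours in the members' counts was not tested. AT3G21320, AT4G11340 and PSEUDOSRKA overlap a gene of the opposite strand by 1512, 76 and 415 bp. AT3G21310, on the other strand of AT3G21320, had 1.02 and 1.08 CPM in DIF-OX2 on Dex, against 0.615 and 0.362 in Col-0 on Dex. MPK5, on the other strand of AT4G11340, had 14.7 and 13.2 CPM in DIF-OX2 on Dex, against 17.7 and 11.3 in Col-0 on Dex. AT4G21366, on the other strand of PSEUDOSRKA, had no count in any library.

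**Figure D4:**
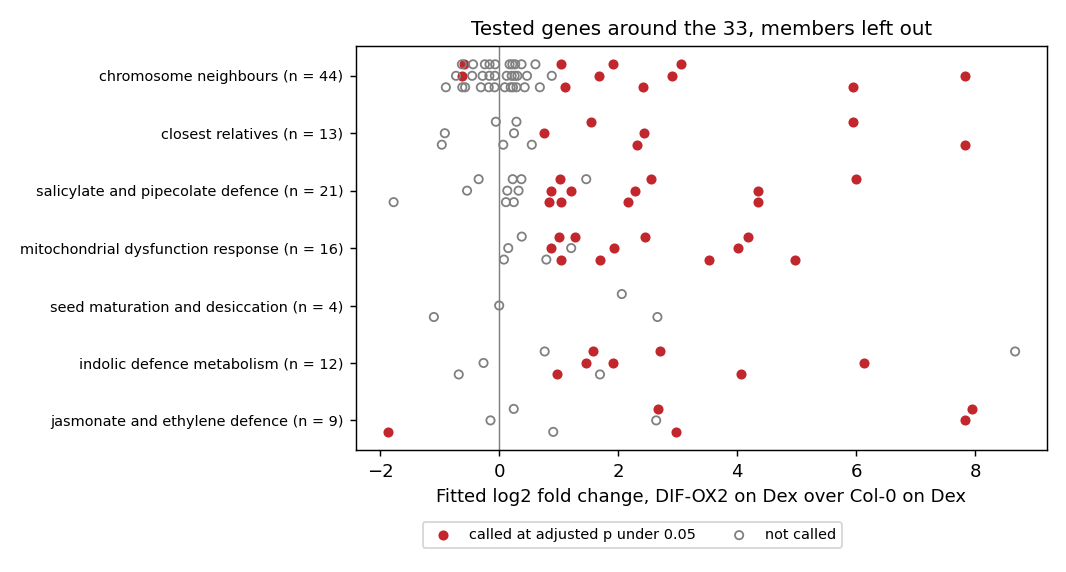
Fitted log2 fold changes (x axis) of DIF-OX2 on Dex over Col-0 on Dex for the tested neighbours, relatives and listed genes that are not members, 1 point per gene, filled where called by edgeR at an adjusted p below 0.05. Neighbours centre near 0, with 11 of 44 called. The salicylate, mitochondrial and indolic lists lie mostly right of 0 and were chosen with earlier results of these data known. Values of genes with no count in Col-0 on Dex depend on the prior count.

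The promoters of the members were searched on both strands over 250 bases before the gene start. The W-box core TTGAC occurred in 21 of 33 (63.6%), against 44.5% of all 32834 promoters of that length, 43.4% of those of the other silent genes and 52.2% of those of genes called higher outside the set. It occurred 3 times in 2 members, MYB2 and AT4G28420, and 2 times in 6. TGACG, the core bound by TGA factors, which overlaps a W-box core where the letters read TTGACG, occurred in 21.2% of member promoters and 18.2% of all. The G-box core ACGTG was found in 30.3% of member promoters and 21.6% of all, and the full G-box CACGTG, which holds that core on both strands, in 9.09% and 5.83%. GCCGCC was found in 1 member, PDF1.2, which is 3.03% against 1.98% of all. The mitochondrial dysfunction motif, which NAC factors bind, was found in 1 member, AT4G28460, which is 3.03% against 1.77% of all. TATAAA occurred in 57.6% of member promoters and 45.8% of all. These shares are descriptions without a test, and a match is not a shown binding site.

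Gene structure set the members apart from other silent genes only as a description. Of the members 87.9% are annotated as protein coding, against 52.8% of the 11698 silent genes found in the annotation and 81.4% of all genes found. Single-exon genes made up 30.3% of members, 57.3% of silent genes and 30.2% of all. The median exon length was 1295 bp in members, 969 bp in silent genes and 1539 bp in all.

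Libraries held 8805568 to 16556322 counts, DIF-OX2 on Dex having both the smallest, replicate 1, and a larger one of 14766519. DAL (AT2G33430), the gene mutated in dal-2, had 38.3 and 43.2 CPM in dal-2 and 66.1 to 102 CPM in the other 8 libraries, and the locus of DIF was not identified here. Leaf markers summed to 9475 to 13025 CPM in DIF-OX2 on Dex, 22614 to 22717 in DIF-OX2, 1093 to 3025 in dal-2, 22984 to 24297 in Col-0 on Dex and 21474 to 22525 in Col-0, with 0 of 3 markers at 0 counts. Root markers summed to 2480 to 2896 CPM in DIF-OX2 on Dex, to 6006 to 6236 in dal-2 and 1826 to 1946 in Col-0 on Dex, with 0 of 3 at 0 counts. Seed markers summed to 0 to 2.10 CPM in DIF-OX2 on Dex (3 and 1 of 3 at 0 counts in replicates 1 and 2) and 0.264 to 0.302 in Col-0 on Dex. In dal-2 they summed to 3.80 to 4.57 CPM. Flower markers summed to at most 0.339 CPM in DIF-OX2 on Dex, against 0.242 in Col-0 on Dex. They reached 0.927 CPM in DIF-OX2 and 2.21 in dal-2. The 5 pollen markers summed to 60.2 to 64.6 CPM in DIF-OX2 on Dex and 45.7 to 49.3 in Col-0 on Dex. Of them 3 (VGD1, PPME1 and PRF5) were at 0 counts in each library of both groups. TUA1, which was not called, made up 54.2 and 56.8 CPM of the pollen sums in DIF-OX2 on Dex. In DIF-OX2 the pollen sums were 54.5 to 55.55 CPM, in Col-0 50.3 to 56.2 and in dal-2 36.9 to 73.0. PRF4, a profilin of pollen, rose to 6.02 and 7.79 CPM in DIF-OX2 on Dex, against 0.966 and 0.966 in Col-0 on Dex (log2 fold change 2.57, SE 0.27, adjusted p = 0.000763 by edgeR), and was the 1 called marker of these 5 lists. Its call held with each library left out. None of the leaf and root markers was called, and PYK10 made up 2441 and 2839 CPM of the root sums in DIF-OX2 on Dex. The summed leaf markers were lower and the summed root markers higher in DIF-OX2 on Dex than in Col-0 on Dex, and the part of any of these markers in the members' levels was not tested.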

How the data were processed

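Whole-seedling RNA was sequenced in 10 libraries, 5 groups of 2. Per the submitters' processing notes, reads were processed with Trimmomatic, TopHat2 and HTSeq on the TAIR10 build. Versions, strand setting and the handling of multiply aligned reads are not given in the sources used here. The deposited table holds raw read counts per gene made by the authors, and 0 of its columns belonged to no sample.

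CPM was the count over the column sum times 1000000, without further scaling. Members averaged below 0.5 CPM in each of 4 groups and had 3 CPM or more in both libraries of DIF-OX2 on Dex, leaving out AT3G29365, AT5G36150, AT2G14610 and AT1G26380 to AT1G26420. The members and all gene lists were chosen with earlier results of these data known. Named genes were the 15 members with the highest mean, the 3 highest of each role, the 3 nearest to each limit on either side, the 3 highest in another library, the 3 with the largest replicate difference and, of each list, the 3 largest called changes. Other members, neighbours, relatives, VSP2, the seed genes and PRF4 were added after their values were seen.

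Tests of other genes used edgeR 4.0.16 in R 4.3.3 (filterByExpr, TMM, quasi-likelihood test, 1 coefficient per group over all 10 libraries, 20681 genes) with Benjamini-Hochberg adjustment, called at an adjusted p of 0.05. The pipeline was tested on simulated data. Bounds used a floor of 3 counts over a group, and ratios carry exact 95% intervals, which cover counting error only. Names, coordinates and sequences came from RefSeq TAIR10.1, which matched 32835 of 33602 genes. Relatives were the best hit outside the set in BLAST+ 2.17.0 at an E value of at most 1e-20. Alternatives were other limits, TMM-scaled CPM, DESeq2 1.42.0, other sample sets, no count filter and the replicate number as a block.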

Additional observations from a re-analysis of the deposited data

Results flagged for a closer look

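For 12 of the 26 genes outside the set that were named for a call in DIF-OX2 on Dex against Col-0 on Dex, the effect of Dex in DIF-OX2 differed from its effect in Col-0 in the interaction test of edgeR's quasi-likelihood fit, at adjusted p-values of 0.000332 to 0.0461. The differences on the log2 scale were 6.19 for CYP702A2, 5.76 for SARD1, 4.52 for PBS3, 4.44 for NAC042, 3.38 for GSTF6, 3.03 for AT5G10130 and 3.02 for PR4. They were 2.63 for HAM4, 2.57 for AT5G25970, 2.49 for AT4G11350, 1.40 for AT4G28410 and 0.89 for AT5G58620, the relative of PEI1. Of the 26 genes 24 had been named for a rise, so the positive sign of all 12 follows from that choice. The interaction test called 6.33% of all 20681 genes. It uses the same libraries that chose the 26 genes, so the choice also favoured a call among them. Their number called is therefore not comparable with that share. With 2 libraries a group, no group was large enough to look for a single library that stands apart.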

How the results depend on the processing

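The number of members followed the limits. It was 17 with a mean below 0.25 CPM, 60 with a mean below 1 CPM and 53 with 2 CPM or more in DIF-OX2 on Dex, against 33. It stayed within 1.5 times of 33 with 5 CPM or more, on TMM-scaled CPM and with each other library below 0.5 CPM. With 1 library left out it ranged between 32 and 44, the highest without DIF-OX2 on Dex replicate 1. Calls in DIF-OX2 on Dex against Col-0 on Dex numbered 4549. They were 6892 with only these groups in the fit and 7065 without both dal-2 libraries, a fit added after the data had been seen, and ranged between 1343 and 3303 with 1 library left out. Against DIF-OX2 there were 5023 calls, 7632 without both dal-2 libraries and 1394 to 3645 with 1 library left out. In dal-2 against Col-0 there were 7011 calls, 2258 with only these groups and 3891 to 8352 with 1 left out. Over the same fits the list calls ranged between 4 and 7 for salicylate, 6 and 10 for mitochondria, 0 and 1 for seed, 4 and 5 for indolic defence and 2 and 3 for jasmonate. They ranged between 5 and 10 for neighbours and 2 and 5 for relatives. Without both dal-2 libraries 1 seed gene was called (lower), against 0, and the 1 called without DIF-OX2 on Dex replicate 1 was higher. No fold change of a gene named for its call reversed. The balance of all calls did: against Col-0 on Dex 2408 were higher and 2141 lower, but 3386 and 3506 with only these groups. Against DIF-OX2 the calls were 2632 higher and 2391 lower, but 3394 and 3492 with only these groups and 2424 and 2491 by DESeq2. Without DIF-OX2 on Dex replicate 2 the share higher was 66.9% and 68.1% in these comparisons, against 52.9% and 52.4%. In dal-2 it was 34.5% with only these groups, against 46.8%. These fits, except that of DESeq2, also had fewer libraries, and the cause of the moves was not tested.

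Replicate numbers are shared between groups, but nothing in the labels ties same-numbered libraries together. Replicate differences correlated over genes by 0.0973, 0.0729 and 0.124 in the 3 comparisons. With the replicate block the calls numbered 5008, 5470 and 7479, and no list call count moved by over 1.5 times. For genes with a few counts in the controls, depth limits the fold to a wide interval.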
